A study of Mus musculus with 2 samples.

Results

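The genes that drive and restrain the cell division cycle, with the RB and p53 pathways that control them, were measured in mouse embryonic stem (ES) cells of genotype Fbxl10 T/T and in wild-type (WT) ES cells. Members were taken by gene symbol: the A-, B-, D- and E-type cyclins, cyclin-dependent kinases (CDKs), CDC25 phosphatases, WEE1, CDK inhibitors, E2F factors, RB family proteins, p53 with its MDM partners and a set of p53 target genes. Under these symbols 44 of the 13620 listed genes were found. Cdk1 was listed under its older symbol Cdc2a, so it is described beside the members and not counted with them, and Ccna1 and Ccnb3 were not analysed here. Both genotypes are of strain C57BL/6J, and both were cultured in serum with LIF on inactivated embryonic fibroblasts that were depleted before harvest. Polyadenylated RNA was sequenced from 1 library of Fbxl10 T/T and 1 of WT. Fbxl10 is an older name of Kdm2b, which encodes a CpG-binding subunit of a variant Polycomb complex. The labels do not say what the T allele alters, and they do not say how many clones each genotype stands for.

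Progress through G1 is driven by cyclin D with CDK4 or CDK6 and by cyclin E with CDK2, which phosphorylate RB family proteins and so release E2F factors to transcribe S-phase genes. INK4 proteins bind CDK4 and CDK6, CIP/KIP proteins bind cyclin-CDK complexes, and p53 induces the CIP/KIP gene Cdkn1a. Mouse ES cells are known for a short G1 phase, high cyclin E-CDK2 activity and little control by RB. In mouse fibroblasts KDM2B is known to hold down Cdkn2b, and Polycomb proteins are known to bind the Cdkn2a and Cdkn2b locus.

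The listed genes held 27109446 reads in Fbxl10 T/T and 21198574 in WT, and levels are given as normalised CPM (reads scaled by the authors to the effective size of each library, abbreviated CPM below). Kdm2b itself had 10.6 CPM in Fbxl10 T/T, against 102.5 CPM in WT. With 1 library per genotype no difference between genotypes could be tested, and "higher" and "lower" describe these 2 libraries. Intervals are exact (Clopper-Pearson) 95% intervals from the reads and cover counting error only. A gene was counted as higher or lower when the ratio of CPM + 0.5 passed 2-fold. The identity of the cells also differed. Among marker genes of endoderm, 11 of 11 were higher, with 55340 summed CPM in Fbxl10 T/T and 5842 in WT. Of the pluripotency markers 7 of 10 were lower and none higher, with sums of 1886 CPM in Fbxl10 T/T and 6904 in WT. Fibroblast markers, which would mark feeder cells, had 1 of 10 measured lower and none higher, with sums of 606.8 CPM in Fbxl10 T/T and 978.9 in WT. The lower one, Fbln2, held 237.3 CPM of the sum in Fbxl10 T/T and 545.6 of that in WT. By sign alone 8 of the 10 were below WT and 2 above. Lum and Fap of that list were not analysed here. No measured marker was at 0 in either library. What part these differences in cell identity had in the values below was not tested, and in bulk RNA a change in the share of a cell type cannot be told apart from a change of RNA per cell.

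The upstream sequence of 3 members is shown as examples only. Cdk2 had an E2F motif and was above WT, though members with such a motif were mixed in direction, as given below. Cdkn2b is an INK4 gene known to be controlled by KDM2B in mouse fibroblasts, and Trp53 is the abundant member that was furthest below WT. Each run is the 250 bases before the RefSeq gene start in build GRCm38.p6, 5′ to 3′ on the strand of the gene.
Cdk2 (chr10:128705052-128705301, minus strand; capitals mark the E2F motif): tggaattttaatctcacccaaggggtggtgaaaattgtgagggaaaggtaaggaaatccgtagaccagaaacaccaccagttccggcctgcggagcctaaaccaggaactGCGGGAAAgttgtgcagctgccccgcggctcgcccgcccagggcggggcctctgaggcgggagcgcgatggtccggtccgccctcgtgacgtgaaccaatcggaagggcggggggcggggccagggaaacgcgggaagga
Cdkn2b (chr4:89311033-89311282, minus strand; capitals mark CpG): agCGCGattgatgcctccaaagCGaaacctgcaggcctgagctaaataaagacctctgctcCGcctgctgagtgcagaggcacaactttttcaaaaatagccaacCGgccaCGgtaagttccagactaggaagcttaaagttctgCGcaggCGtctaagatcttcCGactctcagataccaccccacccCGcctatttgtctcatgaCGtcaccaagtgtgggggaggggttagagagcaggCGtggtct
Trp53 (chr11:69580109-69580358, plus strand; capitals mark CpG): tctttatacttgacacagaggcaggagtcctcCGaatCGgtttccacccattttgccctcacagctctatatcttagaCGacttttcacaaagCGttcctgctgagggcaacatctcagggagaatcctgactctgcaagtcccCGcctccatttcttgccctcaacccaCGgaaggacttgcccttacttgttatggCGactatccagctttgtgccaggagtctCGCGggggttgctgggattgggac
These runs hold 21 CpG dinucleotides in Cdk2, 12 in Cdkn2b and 9 in Trp53.

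RefSeq windows reaching from 250 bases before to 50 bases after a start were matched for 34 of the 44 members, as 42 windows. The median was 23 CpG per window for the members and 7 over all 32851 windows. An E2F motif (TTTGGCGC, TTTCCCGC, TTTCGCGC, TTTGCCGC or TTTGGCGG on either strand) was in 16.7% of the members' windows and 2.78% of all windows. Each of these motifs holds a CpG, and the windows were not matched for CpG. What part CpG content had in this difference was not tested. The 7 genes with a motif were Cdc25a, Cdk2, Cdkn2a, E2f2, E2f3, E2f7 and Rbl1. Of these, Cdk2 was higher (log2 ratio 1.20), E2f2 was lower (log2 ratio -1.28), and the other log2 ratios lay between -0.71 in Rbl1 and 0.44 in Cdkn2a. The cell cycle homology letters TTTGAA were in 16.7% of the members' windows and 17.9% of all windows.

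Most of the 44 members lay within 2-fold of WT. Higher in Fbxl10 T/T were 5 members (11.4%), against 14.8% of all 13512 genes at 1 CPM or more, and 6 members (13.6%) were lower, against 20.6% of all genes. Both shares were below those of all genes. The higher members were Cdk2, Ccne2, Cdkn2b, Cdkn2c and Cdkn3, and the lower ones were Trp53, Cdk6, Gadd45a, Ccnd1, Ccne1 and E2f2. At 4-fold no member was higher (3.84% of all genes) and 2, Cdk6 and Trp53, were lower (4.55%, against 9.10% of all genes). At 1.5-fold 12 members were higher and 12 lower, 27.3% each, against 26.5% and 28.7% of all genes. The median log2 ratio of the members was -0.20, and that of all genes was 0.02. All 44 members passed the 1 CPM minimum, and each had at least 20 reads in each library. Scaling to a common median or upper quartile would move all ratios down by up to 0.13 or 0.24 on the log2 scale, which would put the median of all genes at -0.11 or -0.21 and that of the members at -0.33 or -0.43. Among the 44 members this turned the sign of Cdc25b alone. With a common upper quartile 2 members, Cdkn2b and Cdkn2c, were higher in place of 5.

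**Figure D1:**
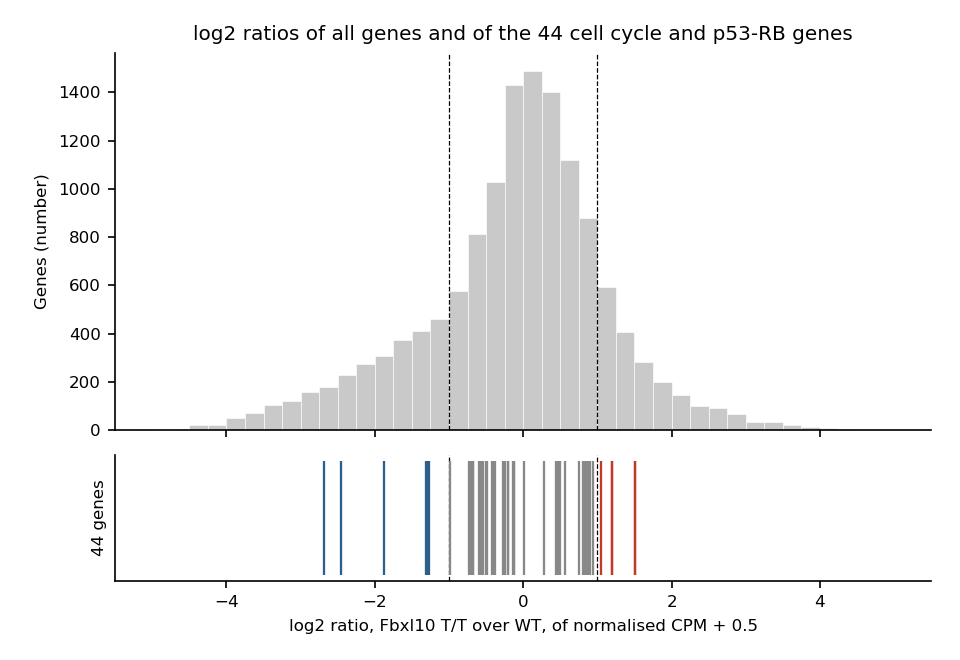
The upper panel gives the number of genes (y axis) by log2 ratio of Fbxl10 T/T over WT on normalised CPM + 0.5 (x axis) for 13512 genes, and each line in the lower panel is 1 of the 44 members, red where 2-fold higher, blue where 2-fold lower and grey in between. The dashed lines mark 2-fold; 33 of the 44 members lie between them.

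**Figure D2:**
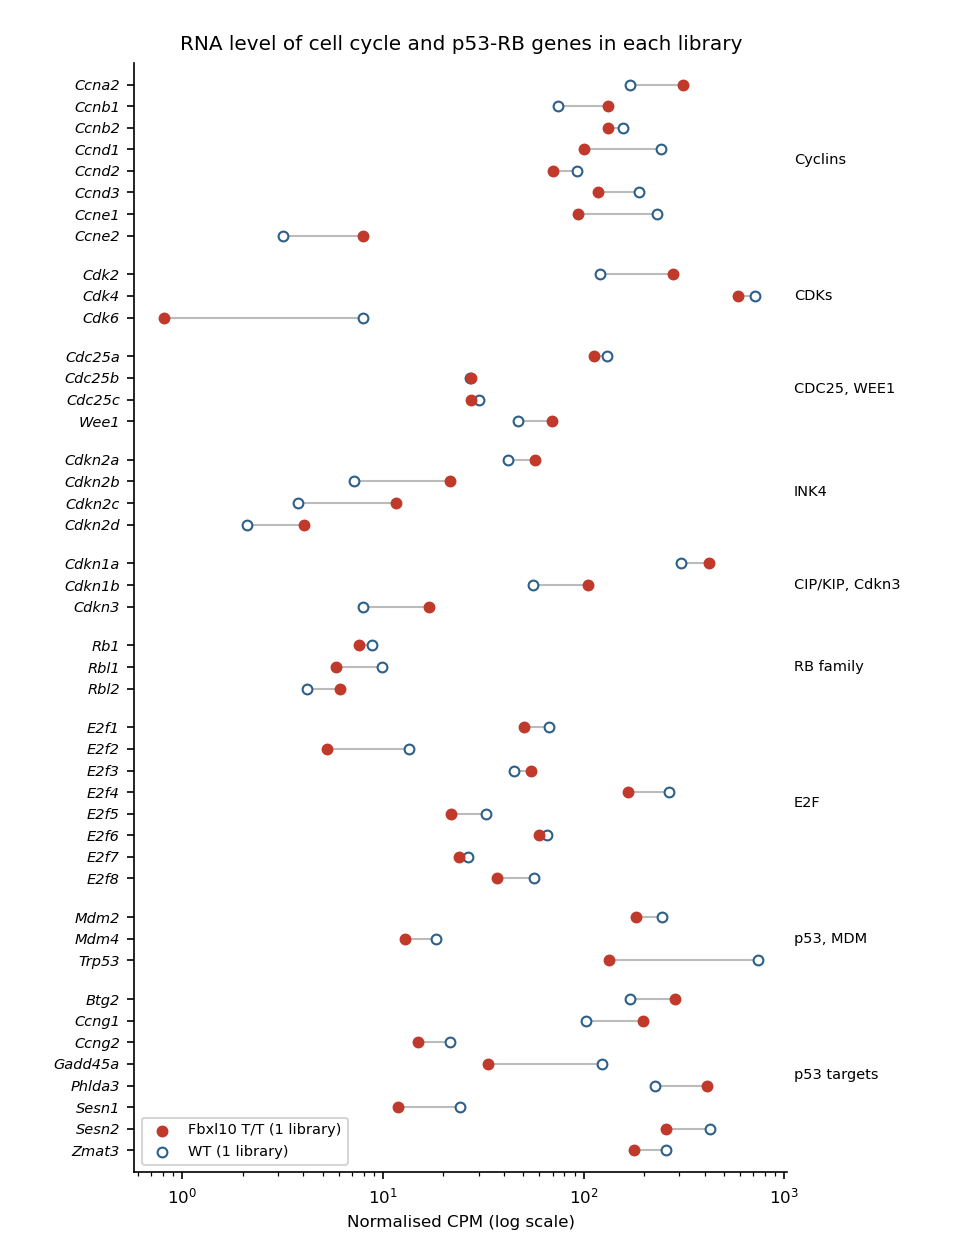
Level of each member in normalised CPM on a log axis, with Fbxl10 T/T as filled red points and WT as open blue points, 1 library each, grouped by role. All INK4 and CIP/KIP members have the red point to the right of the blue, and the 3 D-type cyclin genes have it to the left.

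D-type cyclins, which couple growth signals to CDK4 and CDK6, were below WT in all 3 members, and Ccnd1 passed 2-fold. Over all genes, 49.1% were below WT and 20.6% were 2-fold lower. Ccnd1 had 100.7 CPM in Fbxl10 T/T, against 242.5 CPM in WT, which is 2.41-fold lower (interval 2.30 to 2.52). Ccnd3 had 118.1 CPM in Fbxl10 T/T and 188.5 CPM in WT, and Ccnd2 had 70.4 CPM in Fbxl10 T/T and 92.2 CPM in WT, neither of which passed 2-fold. The exons of Ccnd1 share 23.4% of their bases with LTO1 on the opposite strand, a gene that had 26.7 CPM in Fbxl10 T/T and 16.7 CPM in WT. Ccnd3 has a processed pseudogene, Ccnd3-ps, of 96.3% identity over 881 bases, listed at 2.11 CPM in Fbxl10 T/T and 4.27 CPM in WT.

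The E-type cyclins, partners of CDK2 at the entry into S phase, moved in opposite directions. Ccne1 had 93.7 CPM in Fbxl10 T/T, against 232.5 CPM in WT, which is 2.48-fold lower (interval 2.36 to 2.61). Ccne2 had 7.94 CPM in Fbxl10 T/T, against 3.18 CPM in WT, which is 2.49-fold higher (interval 1.91 to 3.30) and rests on 196 reads in Fbxl10 T/T and 76 in WT. With a common upper quartile its log2 ratio was 0.97 and did not pass 2-fold. Per kilobase (kb) of merged exon, a scale for setting levels of different genes side by side, Ccne1 was the main form, at 93.9% of the summed level in Fbxl10 T/T and 99.0% in WT. The sum of both was 37.5 CPM per kb in Fbxl10 T/T and 88.3 in WT. Ccne2 shares 17.4% of its exon bases with Ints8 on the opposite strand, which had 16.9 CPM in Fbxl10 T/T and 10.2 CPM in WT, so part of the reads of either may belong to the other.

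Cyclins of S phase and mitosis did not pass 2-fold. Ccna2, whose protein acts with CDK2 and CDK1 in S and G2 phase, had 313.1 CPM in Fbxl10 T/T and 170.2 CPM in WT, a ratio of 1.84. Ccnb1, a mitotic cyclin gene, had 132.8 CPM in Fbxl10 T/T and 74.8 CPM in WT (ratio 1.78), while Ccnb2, its close relative, had 132.8 CPM in Fbxl10 T/T and 157.6 CPM in WT (ratio 0.842). The value of Ccnb1 is uncertain, because near-identical pseudogenes can take or give reads. Ccnb1-ps, of 99.2% identity over 1287 bases, had 49.5 CPM in Fbxl10 T/T and 30.0 CPM in WT, and Gm12856, of 98.1% identity over 1294 bases, had 18.6 CPM in Fbxl10 T/T and 11.2 CPM in WT. Both copies were above WT, as was Ccnb1.

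**Figure D3:**
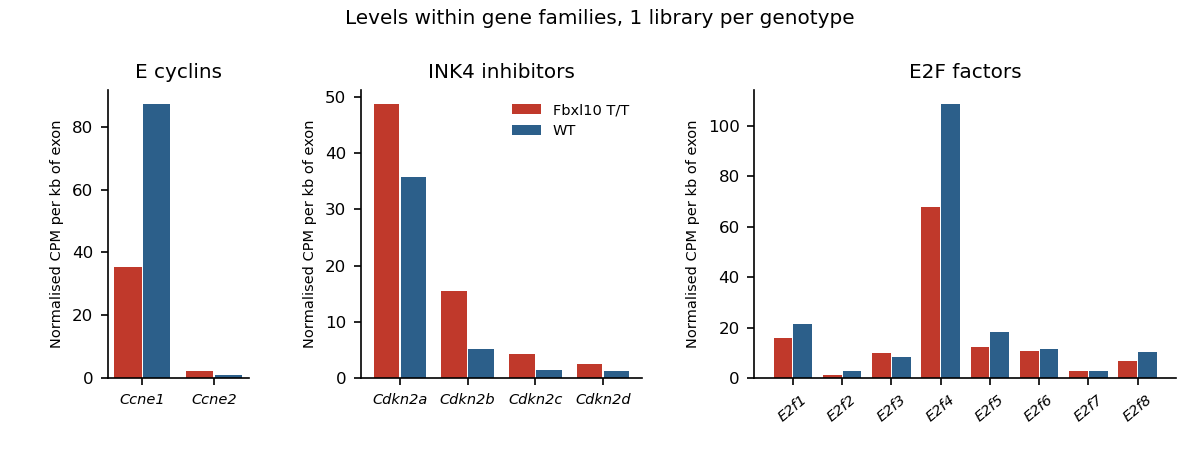
Bars give normalised CPM per kb of merged exon (y axes, from 0) for the E-type cyclins, INK4 inhibitors and E2F factors, with Fbxl10 T/T in red to the left of WT in blue, 1 library each and so without error bars. Ccne1 (35.2 in Fbxl10 T/T, 87.3 in WT) and Cdkn2b (15.4 in Fbxl10 T/T, 5.18 in WT) differ in opposite directions.

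The CDK genes divided. Cdk2, the kinase of cyclins E and A, had 277.2 CPM in Fbxl10 T/T, against 120.3 CPM in WT, which is 2.30-fold higher (interval 2.21 to 2.41). With a common upper quartile its log2 ratio was 0.96 and did not pass 2-fold. Cdk4, a cyclin D kinase, had 588.3 CPM in Fbxl10 T/T and 712.6 CPM in WT (ratio 0.825), and 19.7% of its exon bases lie opposite those of Tspan31, which had 117.0 CPM in Fbxl10 T/T and 72.0 CPM in WT. Cdk6, the other cyclin D kinase, was near the bottom of the range, at 0.810 CPM in Fbxl10 T/T (20 reads) and 7.96 CPM in WT (190 reads), which is 9.82-fold lower (interval 6.18 to 16.4). Cdk1, the mitotic kinase listed as Cdc2a, had 305.6 CPM in Fbxl10 T/T and 209.0 CPM in WT (ratio 1.46, interval 1.41 to 1.52).

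Regulators of CDK phosphorylation differed little. Cdc25a, a phosphatase that activates CDK2, had 113.1 CPM in Fbxl10 T/T and 130.3 CPM in WT. Cdc25b had 27.5 CPM in Fbxl10 T/T and 27.3 CPM in WT, and Cdc25c had 27.5 CPM in Fbxl10 T/T and 30.0 CPM in WT. Both of these act at entry into mitosis, and both counting intervals include a ratio of 1. Wee1, the kinase that opposes them, had 69.8 CPM in Fbxl10 T/T and 46.9 CPM in WT, a ratio of 1.49.

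All 7 inhibitor genes among the members were above WT, and 3 of them passed 2-fold, while the CIP/KIP gene Cdkn1c, described with the further lists, was 22.2-fold lower. Of all genes 50.9% were above WT and 14.8% were 2-fold higher. Cdkn2b, which encodes an INK4 inhibitor of CDK4 and CDK6, had 21.5 CPM in Fbxl10 T/T (530 reads), against 7.20 CPM in WT (172 reads), which is 2.98-fold higher (interval 2.51 to 3.56). Cdkn2c, another INK4 gene, had 11.6 CPM in Fbxl10 T/T (286 reads), against 3.77 CPM in WT (90 reads), which is 3.07-fold higher (interval 2.42 to 3.94). The remaining INK4 genes did not pass 2-fold. Cdkn2a had 57.2 CPM in Fbxl10 T/T and 41.9 CPM in WT (ratio 1.36, interval 1.26 to 1.48). It encodes both an INK4 protein and the p53 activator ARF, whose transcripts a gene-level value does not separate. Cdkn2d had 4.05 CPM in Fbxl10 T/T (100 reads) and 2.09 CPM in WT (50 reads). Per kb of exon Cdkn2a had the highest level of the family in both libraries, with 68.6% of the INK4 sum in Fbxl10 T/T and 81.9% in WT, and Cdkn2b took 21.7% in Fbxl10 T/T and 11.9% in WT. Cdkn2a and Cdkn2b are neighbours on chromosome 4 in mm9, from 88920377 to 88940557 and from 88952198 to 88956850, with 11640 bases between them.

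Of the CIP/KIP genes, Cdkn1b had 105.0 CPM in Fbxl10 T/T and 55.8 CPM in WT (ratio 1.88, interval 1.76 to 2.01). Cdkn1a, which is also a p53 target, had 420.5 CPM in Fbxl10 T/T and 304.4 CPM in WT (ratio 1.38, interval 1.34 to 1.42), and its level per kb was above those of the 4 INK4 members in both libraries, at 118.4 CPM per kb in Fbxl10 T/T and 85.7 in WT. Neither passed 2-fold. Cdkn3, which encodes a phosphatase that dephosphorylates CDKs, had 16.9 CPM in Fbxl10 T/T and 7.96 CPM in WT, which is 2.13-fold higher (interval 1.79 to 2.54). The log2 ratio of Cdkn3 was 0.92 with the libraries scaled to a common median and 0.81 with a common upper quartile, and neither passed 2-fold.

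**Figure D4:**
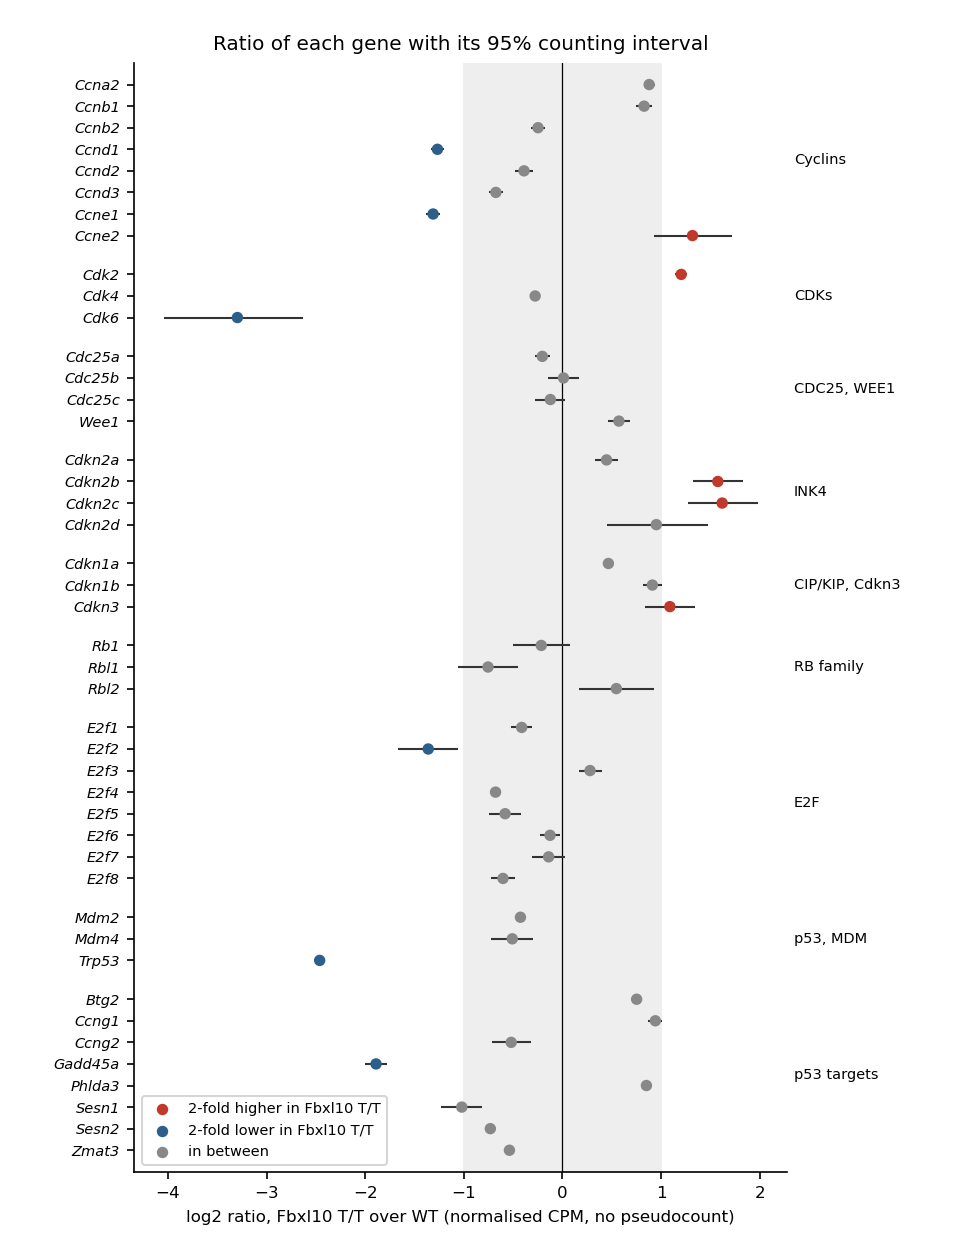
log2 ratio of Fbxl10 T/T over WT for each member, from normalised CPM without a pseudocount (x axis), with its 95% counting interval as a line, grouped by role; colours give the 2-fold call on CPM + 0.5 and the grey band marks 2-fold. Trp53 and Cdk6 lie furthest to the left, and all INK4 and CIP/KIP members lie to the right of 0; Sesn1 is 2.03-fold lower on this scale and is grey because its log2 ratio with the pseudocount is -0.99.

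RB family genes were low in both libraries, and none passed 2-fold. Rb1 had 7.62 CPM in Fbxl10 T/T and 8.84 CPM in WT, with an interval of 0.704 to 1.05 for the ratio. Rbl1, which encodes p107, had 5.83 CPM in Fbxl10 T/T and 9.84 CPM in WT (ratio 0.593, interval 0.478 to 0.733), and Rbl2, which encodes p130, had 6.12 CPM in Fbxl10 T/T and 4.19 CPM in WT (ratio 1.46, interval 1.13 to 1.90). The exons of Rb1 overlap those of Lpar6, a receptor gene on the opposite strand, which had 25.6 CPM in Fbxl10 T/T and 8.25 CPM in WT, over 408 bases. They also overlap those of Rcbtb2 on that strand, which had 31.9 CPM in Fbxl10 T/T and 31.2 CPM in WT, over 488 bases.

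E2F genes were below WT in 7 of 8 cases, and E2f2 alone passed 2-fold. Of all genes 49.1% were below WT, and the 1 of 8 at 2-fold is 12.5%, against 20.6% of all genes. E2f2, an activating E2F, had 5.27 CPM in Fbxl10 T/T (130 reads), against 13.5 CPM in WT (323 reads), which is 2.57-fold lower (interval 2.09 to 3.17). Of the other activators, E2f1 had 50.5 CPM in Fbxl10 T/T and 67.2 CPM in WT, while E2f3, the exception among the 8, had 54.6 CPM in Fbxl10 T/T and 45.0 CPM in WT. E2f4, which acts mainly with RB family proteins as a repressor, had 166.5 CPM in Fbxl10 T/T and 266.4 CPM in WT (ratio 0.625). It had the highest level per kb of the family in both, with 53.3% of the E2F sum in Fbxl10 T/T and 59.0% in WT. E2f5, a relative of E2f4, had 21.8 CPM in Fbxl10 T/T and 32.7 CPM in WT. E2f6, which takes part in a variant Polycomb complex, had 60.2 CPM in Fbxl10 T/T and 65.7 CPM in WT. The RB-independent repressors E2f7 and E2f8 had 23.9 and 37.1 CPM in Fbxl10 T/T and 26.4 and 56.4 CPM in WT.

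Trp53, which encodes p53, showed the largest difference in CPM among the members. It had 133.4 CPM in Fbxl10 T/T (3293 reads), against 734.7 CPM in WT (17547 reads), which is 5.51-fold lower (interval 5.31 to 5.72). The gene (ENSMUSG00000059552) lies on chromosome 11 from 69393861 to 69405375 in mm9. The authors' deposited table gives it a log2 ratio of 2.46 for WT over Fbxl10 T/T. A processed pseudogene, Trp53-ps, matches it at 97.7% over 353 bases and was not used here. Mdm2, the ubiquitin ligase gene that p53 induces, had 182.1 CPM in Fbxl10 T/T and 244.6 CPM in WT (ratio 0.745). Mdm4, its partner in restraining p53, had 12.9 CPM in Fbxl10 T/T and 18.4 CPM in WT (ratio 0.703).

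The p53 target genes differed by less than Trp53 and were mixed in direction. Of the 10 in the set, including Cdkn1a and Mdm2, 6 were below WT (60.0%, against 49.1% of all genes) and 4 above. Their median log2 ratio was -0.46, and that of all genes was 0.02. Gadd45a alone of the 10 passed 2-fold, against 20.6% of all genes that were lower. Gadd45a, a stress-induced growth arrest gene, had 33.3 CPM in Fbxl10 T/T, against 123.3 CPM in WT, which is 3.71-fold lower (interval 3.43 to 4.01), and 19.1% of its exon bases lie opposite those of a noncoding transcript. Sesn1, a stress-response gene that restrains mTORC1, had 11.9 CPM in Fbxl10 T/T and 24.2 CPM in WT, which is 2.03-fold lower, though the log2 ratio with the pseudocount was -0.99 and so just short of 2-fold; it passed 2-fold with a pseudocount of 0.1 CPM (-1.01) and with either scaling (-1.12 and -1.22). Its paralogue Sesn2 had 256.6 CPM in Fbxl10 T/T and 425.8 CPM in WT. Zmat3, an RNA-binding protein gene, had 177.5 CPM in Fbxl10 T/T and 257.7 CPM in WT. Ccng2, an atypical cyclin gene, had 15.0 CPM in Fbxl10 T/T and 21.5 CPM in WT. Above WT stood Ccng1, the related cyclin gene and p53 target, at 196.6 CPM in Fbxl10 T/T and 102.3 CPM in WT (ratio 1.92). Phlda3, which encodes an inhibitor of AKT, had 409.8 CPM in Fbxl10 T/T and 227.1 CPM in WT (ratio 1.80). Btg2, an antiproliferative gene, had 286.4 CPM in Fbxl10 T/T and 170.0 CPM in WT (ratio 1.68). The summed level of the 10 targets was 1990 CPM in Fbxl10 T/T and 1901 CPM in WT.

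A further 127 genes of the same pathways were taken from 7 lists and 124 of them were measured, of which 9 were higher (7.26%), 12 lower (9.68%) and 103 in between. Both shares were below those of all genes, 14.8% and 20.6%, which also stand behind the counts of each list below. Mitotic kinases and checkpoint genes (17) had 3 higher (17.6%) and 1 lower (5.88%), with a median log2 ratio of 0.37. The proliferation marker Mki67 had 113.7 CPM in Fbxl10 T/T and 35.1 CPM in WT (3.24-fold higher), and the topoisomerase gene Top2a had 155.7 CPM in Fbxl10 T/T and 68.3 CPM in WT (2.28-fold higher). At the other end of that list were Bub1b, a spindle checkpoint kinase gene, with 72.1 CPM in Fbxl10 T/T and 144.8 CPM in WT, and Espl1, the separase gene, with 135.0 CPM in Fbxl10 T/T and 237.9 CPM in WT. Genes known as E2F targets at G1/S (20) had 3 lower (15.0%) and none higher, with a median of -0.25. Ung, a uracil-DNA glycosylase gene, had 49.7 CPM in Fbxl10 T/T and 151.3 CPM in WT (3.04-fold lower), and Mcm7, a replicative helicase gene, had 220.9 CPM in Fbxl10 T/T and 454.6 CPM in WT (2.06-fold lower). Rrm1, a ribonucleotide reductase gene, had 183.5 CPM in Fbxl10 T/T and 92.4 CPM in WT, and Cdc6, a licensing factor gene, had 139.5 CPM in Fbxl10 T/T and 78.7 CPM in WT, both within 2-fold on the scale used for the counts.

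Among E2F partners and the MuvB/DREAM complex 1 of 8 was lower. This was Mybl2, which encodes the B-MYB factor of G2/M transcription, with 214.0 CPM in Fbxl10 T/T and 1085 CPM in WT (5.07-fold lower). Tfdp2, a dimerisation partner of E2F, had 13.9 CPM in Fbxl10 T/T and 28.1 CPM in WT, which is 2.02-fold lower. Its log2 ratio with the pseudocount was -0.99, just short of 2-fold, so it was not counted. Foxm1, a G2/M transcription factor gene that works with B-MYB, had 184.4 CPM in Fbxl10 T/T and 120.1 CPM in WT, and Lin54 had 33.4 CPM in Fbxl10 T/T and 22.1 CPM in WT. Of the 19 genes of SCF and APC/C ubiquitin ligases, Cul1, the SCF scaffold, was higher at 112.7 CPM in Fbxl10 T/T and 36.9 CPM in WT, and Cdc20, an APC/C activator, was lower at 384.1 CPM in Fbxl10 T/T and 815.9 CPM in WT. The APC/C subunit genes Cdc27 (28.0 CPM in Fbxl10 T/T and 15.2 CPM in WT) and Cdc23 (67.2 CPM in Fbxl10 T/T and 129.4 CPM in WT) differed in opposite directions within 2-fold. Among 23 further CDK and cyclin family genes 1 was higher and 2 lower. The imprinted CIP/KIP gene Cdkn1c had 3.44 CPM in Fbxl10 T/T and 76.4 CPM in WT, opposite in direction to Cdkn1a and Cdkn1b. Cdk18 had 2.03 CPM in Fbxl10 T/T and 12.2 CPM in WT, Cdk14 had 8.06 CPM in Fbxl10 T/T and 3.68 CPM in WT, and Cdk5 had 44.8 CPM in Fbxl10 T/T and 24.8 CPM in WT.

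**Figure D5:**
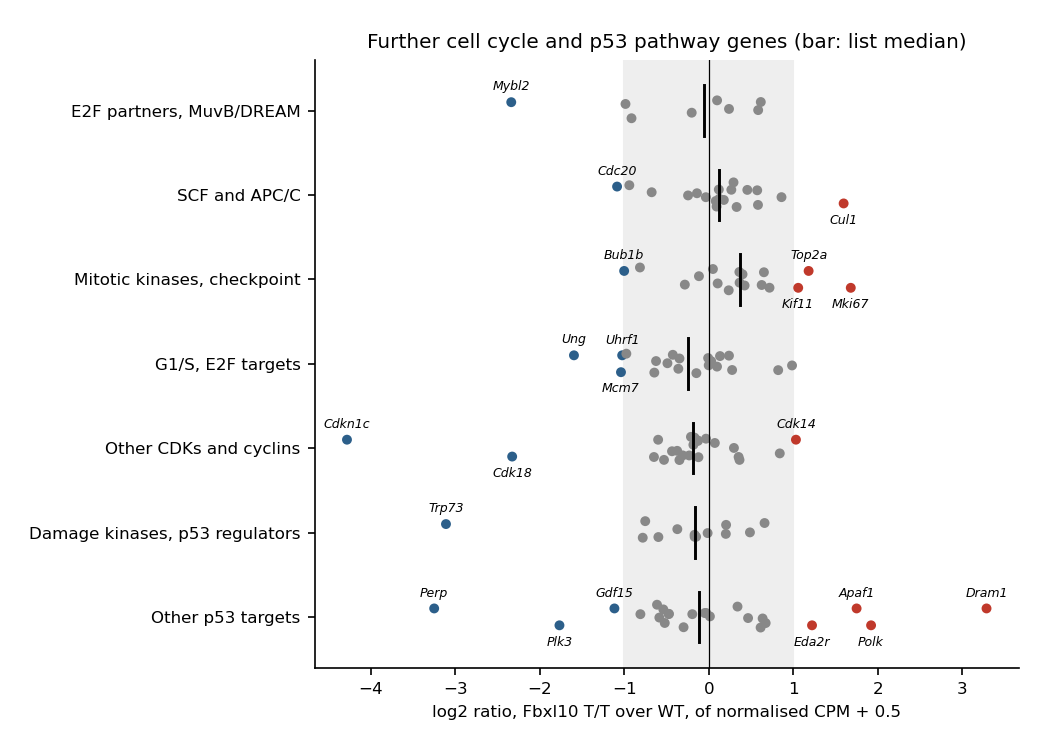
Each point is 1 of 124 further genes in 7 lists (rows), placed by its log2 ratio of Fbxl10 T/T over WT on normalised CPM + 0.5 (x axis), red where 2-fold higher, blue where 2-fold lower and grey in between; the vertical bar is the list median and the grey band marks 2-fold. Every gene past 2-fold is labelled, and 103 points lie within the band.

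Other parts of the p53 pathway were similarly mixed. Of 13 damage kinases and p53 regulators 1 was lower and none higher. This was Trp73, a paralogue of p53, with 0.405 CPM in Fbxl10 T/T (10 reads) and 7.33 CPM in WT (175 reads). Ep300, a p53 acetyltransferase gene, had 95.6 CPM in Fbxl10 T/T and 164.8 CPM in WT, while Kat5 had 76.4 CPM in Fbxl10 T/T and 54.3 CPM in WT and the p53 phosphatase gene Ppm1d had 91.1 CPM in Fbxl10 T/T and 57.4 CPM in WT. Of 24 further genes known as p53 targets 4 were higher and 3 lower, with a median log2 ratio of -0.12. Dram1, an autophagy regulator gene, had 247.7 CPM in Fbxl10 T/T and 24.9 CPM in WT (9.96-fold higher), and Polk, a translesion polymerase gene, had 877 reads in Fbxl10 T/T and 215 in WT (3.95-fold higher in CPM). Perp, a desmosome and apoptosis gene, had 14.2 CPM in Fbxl10 T/T and 139.4 CPM in WT (9.83-fold lower), and Plk3, a stress-induced kinase gene, had 21.3 CPM in Fbxl10 T/T and 73.7 CPM in WT (3.46-fold lower).

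As a comparison of the 2 libraries alone, not of the genotypes, an exact two-sided binomial test of the reads with Benjamini-Hochberg adjustment over all genes called 17 members higher (38.6%) and 23 lower (52.3%), against 42.4% and 40.9% of all 13620 genes. The test called neither Cdc25b, Cdc25c, E2f7 nor Rb1. At this depth counting error is small for most members, so these calls say little about variation between cultures, for which there was no replicate.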

How the data were processed

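Polyadenylated RNA of 2 libraries, 1 Fbxl10 T/T and 1 WT, was analysed. Per the submitters' processing notes, TopHat 1.4.1, HTSeq 0.5.3p9 and edgeR were used on build mm9; the gene annotation, the handling of strand and which step each tool served are not stated there. The authors deposited a normalised signal per gene and library, called normalised CPM here, and a log2 ratio of WT over Fbxl10 T/T. All values (100%) came out as whole multiples of what 1 read is worth, to within 0.01 reads, which gave back the reads (0.0405 CPM per read in Fbxl10 T/T, 0.0419 in WT). The limit set by 3 reads was 0.122 CPM in Fbxl10 T/T and 0.126 CPM in WT. The 24706 rows were reduced to 13620 genes.

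Computed here were log2 ratios of CPM + 0.5, counts at 2-fold among genes that reached 1 CPM in either library, exact intervals, a binomial test of the reads with Benjamini-Hochberg adjustment across all genes (adjusted p at most 0.05), and CPM per kb of merged GENCODE M21 exons, a length that may not match the authors' annotation. In Ccnd3, Cdk2, Cdk4 and Cdkn1b it came to over 80% of the gene's listed mm9 span, so their levels per kb are not given, nor are shares within the D-type cyclins or the CDKs; this limit was set after seeing the data. Near copies are GENCODE transcripts of at least 95% identity over 200 bases. The exons of 17 members overlap a gene on the opposite strand, by over 10% of exon bases with a single gene in 8. Since reads can be PCR copies of 1 molecule, the intervals cover counting error only. Cdkn2d was listed under an identifier that GENCODE M21 does not hold, and its length was taken by symbol. Symbols of other genes came from the file or from GENCODE M21, which matched 13443 identifiers.

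The members, gene lists, rule for named genes and alternatives were chosen with earlier results of these data known. Every member is named, as are 2 genes at either end of each further list. Other settings tried were a pseudocount of 0.1 or 1 CPM, a minimum of 5 CPM or none, scaling to a common median or upper quartile, thresholds of 1.5- and 4-fold, and the binomial test. The steps were tested on simulated reads. The software was scipy 1.17.1, pandas 2.3.3, numpy 2.4.6 and matplotlib 3.10.9 under Python 3.11.15.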

Additional observations from a re-analysis of the deposited data

How the results depend on the processing

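No paired analysis was possible because each genotype had a single library, which also meant that neither could be left out. Neither pseudocount, neither minimum and not the added binomial test moved the members' counts (5 higher, 6 lower) by over 1.5 times. Their median log2 ratio lay between -0.43 (common upper quartile) and -0.20 (pseudocount of 1 CPM) under the 6 alternatives run for it. These values lie within its order-statistic interval (-0.49 to 0.44). That interval comes from the spread of the members and is wide beside these shifts. It therefore does not measure how far the median depends on the settings. Scaling to a common upper quartile left 2 members higher, Cdkn2b and Cdkn2c, with Ccne2, Cdk2 and Cdkn3 short of 2-fold. At 1.5-fold 12 members were higher and 12 lower, and at 4-fold 0 and 2. Over all genes, 3582 were higher at 1.5-fold and 519 at 4-fold, while 1229 were lower at 4-fold, and 1737 when a gene had to reach 5 CPM, a rule that keeps fewer genes. In the E2F partner and MuvB/DREAM list 2 genes were lower with a pseudocount of 0.1 CPM and 3 with either scaling, against 1. In the SCF and APC/C list 2 were lower with either scaling, against 1. In the mitotic list the upper quartile left 1 higher and 2 lower, against 3 and 1, and a pseudocount of 1 CPM left 0 lower. Among further CDK and cyclin genes 0 were higher with a pseudocount of 1 CPM or either scaling, against 1. Among damage kinases and p53 regulators 2 were lower with the upper quartile, against 1. These counts moved because genes near 2-fold crossed it. Of 263 log2 ratios of single members under an alternative, 64 left the gene's own counting interval and no called value changed sign. A minimum does not alter a gene's ratio, so those settings could not move any. Apart from Cdk6 with a pseudocount of 1 CPM, every ratio that left its interval did so under scaling to a common median or upper quartile. Depth limits the low members most: Cdk6 had 20 reads in Fbxl10 T/T and Cdkn2d had 50 in WT.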

Other observations

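Genes next to Trp53 and Cdkn2b were listed after the members' values had been seen. Within 100000 bases of Trp53 in mm9 there were 12 other listed genes, of which 5 were lower (41.7%, against 20.6% of all genes), 1 was higher (8.33%, against 14.8%) and 6 lay in between. Senp3, a SUMO protease gene, had 183.7 CPM in Fbxl10 T/T and 572.6 CPM in WT, and Atp1b2, a sodium pump subunit gene, had 3.16 CPM in Fbxl10 T/T and 32.8 CPM in WT. Wrap53, the gene adjoining the start of Trp53, had 29.8 CPM in Fbxl10 T/T and 46.1 CPM in WT, and Sox15, a transcription factor gene, had 0.810 CPM in Fbxl10 T/T and 26.8 CPM in WT. Sat2 was the higher gene, at 4.86 CPM in Fbxl10 T/T and 1.72 CPM in WT. Within the same distance of Cdkn2b, Cdkn2a was the 1 other listed gene.

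Chromosome 4 carries 6 of the 44 members: Ccne2, Cdkn2a, Cdkn2b, Cdkn2c, E2f2 and Sesn2. This chromosome was looked at after the members' values had been seen. Of these 6, Ccne2, Cdkn2b and Cdkn2c were higher, E2f2 was lower, and Cdkn2a and Sesn2 lay in between. Cdkn2a and Cdkn2b lie side by side, so the 6 are not independent. Over all genes 14.8% were higher and 20.6% lower, and the shares over all genes of chromosome 4 were not computed. Whether members on this chromosome differ from other genes was not tested.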
